A study of Mus musculus with 6 samples.

Results

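The genes described here are the AP-1 and small MAF transcription factors Fos, Fosb, Fosl1, Fosl2, Jun, Junb, Jund, Atf3, Maff and Mafk in AML12 cells after hypoxia and reoxygenation (H/R). They were taken by gene symbol from the deposited count tables, in which all 10 were found among 25330 genes. All 10 had more reads in each of the 3 H/R libraries than in each of the 3 control libraries. In counts scaled for library size this held for all 10 and for 32.5% of tested genes. Fosb, Atf3, Jun and Maff were more than 4-fold higher, with Fos and Junb near 4-fold. Per length of transcript, Atf3 and Maff took a larger share of the pool after H/R, while Fosl1 and Jund took a smaller one.

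AML12 is an immortalized hepatocyte line from a mouse that carried a human TGF-alpha transgene, and its genotype was labelled WT. The control cells (3 libraries) were kept in 21% oxygen, in DMEM/F12 with fetal bovine serum, an insulin, transferrin and selenium supplement, and dexamethasone. The H/R cells (3 libraries, labelled H6R2) were moved to medium with neither serum nor glucose, held at 1% oxygen for 6 h and returned to normal oxygen for 2 h. Whether these cells received serum and glucose again at reoxygenation is not given in the sources used here. The loss of serum, the loss of glucose, the low oxygen and the reoxygenation therefore cannot be told apart. The study used this comparison to look for genes that respond to ischemia-reperfusion injury in hepatocytes.

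AP-1 is a family of paired basic leucine zipper proteins. FOS proteins (Fos, Fosb, Fosl1, Fosl2) do not pair with themselves and need a JUN partner, whereas JUN proteins (Jun, Junb, Jund) can pair with themselves, with FOS proteins or with ATF proteins. FOS-JUN pairs bind the TRE sequence, while pairs that hold an ATF protein favour the CRE sequence. The small MAF proteins Maff and Mafk carry no activation domain and pair mainly with NRF2, a factor of the oxidative stress response, or with BACH1, a repressor. Many of these genes are immediate early genes, which are read within minutes of a stimulus and give short-lived transcripts, and in the liver they are known from regeneration after partial hepatectomy and from stress.

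Because most of these genes share a fast response to stimuli, the stretch just before the start of each is shown for 6 of them. RefSeq promoter entries (GRCm38.p6) were matched for 9 of the 10 genes with 11 promoters. Fosl1 had no entry. The Atf3 and Fosl2 entries and a Maff entry not printed lie before starts inside the loci given below, not at their outer ends. The Jund entry (chr8:70697489-70697738) and another unprinted Maff entry (chr15:79346371-79346620) end upstream of the loci given below and do not adjoin them. The 250 bases before the start are printed 5′ to 3′ on the gene's own strand. Capitals mark the core TGACG on either strand, or the whole element where TGACGTCA or TGACATCA was found. Each of the 6 printed promoters holds a marked element. Of those not printed, the Fosl2 and Jund entries and the Maff entry at chr15:79346371-79346620 hold none, while Mafk and the other Maff entry do.
Fos, chr12:85473640-85473889, plus strand: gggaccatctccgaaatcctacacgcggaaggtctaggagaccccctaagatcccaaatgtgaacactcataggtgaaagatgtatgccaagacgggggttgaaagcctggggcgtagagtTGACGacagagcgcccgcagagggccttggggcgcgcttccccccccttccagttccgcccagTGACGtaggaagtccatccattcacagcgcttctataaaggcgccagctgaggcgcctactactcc
Fosb, chr7:19310046-19310295, minus strand: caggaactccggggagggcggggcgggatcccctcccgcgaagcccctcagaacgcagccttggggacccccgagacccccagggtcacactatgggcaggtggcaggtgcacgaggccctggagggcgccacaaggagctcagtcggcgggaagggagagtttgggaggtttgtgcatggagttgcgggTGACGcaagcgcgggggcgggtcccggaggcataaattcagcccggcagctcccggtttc
Jun, chr4:95052223-95052472, minus strand: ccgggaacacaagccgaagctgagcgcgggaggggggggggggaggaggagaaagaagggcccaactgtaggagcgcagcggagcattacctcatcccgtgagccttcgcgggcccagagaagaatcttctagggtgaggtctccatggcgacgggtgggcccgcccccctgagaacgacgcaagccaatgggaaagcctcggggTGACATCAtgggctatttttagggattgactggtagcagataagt
Junb, chr8:84978749-84978998, minus strand: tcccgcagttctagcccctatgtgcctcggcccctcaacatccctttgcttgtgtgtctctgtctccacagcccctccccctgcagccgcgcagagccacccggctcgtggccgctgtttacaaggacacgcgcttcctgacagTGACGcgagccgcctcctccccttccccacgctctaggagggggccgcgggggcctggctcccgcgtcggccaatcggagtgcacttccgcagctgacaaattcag
Atf3, chr1:191183334-191183583, minus strand: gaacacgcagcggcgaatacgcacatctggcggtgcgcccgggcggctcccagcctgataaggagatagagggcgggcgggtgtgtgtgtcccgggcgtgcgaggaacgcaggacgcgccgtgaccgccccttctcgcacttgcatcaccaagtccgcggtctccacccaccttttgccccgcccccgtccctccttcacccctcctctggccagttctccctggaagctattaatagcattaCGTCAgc
Maff, chr15:79347270-79347519, plus strand: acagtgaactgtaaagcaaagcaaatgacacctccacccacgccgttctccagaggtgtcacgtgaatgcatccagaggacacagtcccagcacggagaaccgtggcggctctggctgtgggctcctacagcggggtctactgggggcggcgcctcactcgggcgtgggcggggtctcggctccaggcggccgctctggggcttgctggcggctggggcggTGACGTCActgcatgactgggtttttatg

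The core TGACG is the shared part of CRE elements. It was found on either strand in 7 of the 11 promoters, which belong to 6 genes (Fos, Fosb, Junb, Atf3, Maff and Mafk), against 17.8% of 32851 RefSeq promoters and 27.4% of the promoters of tested genes. It was chosen after the sequences had been read. In Fos the core began 66 and 129 bases before the start (positions -66 and -129), and in Atf3 it lay at -7. The full CRE, TGACGTCA, which contains the core, was found once, at -29 of the Maff promoter shown, and in 1.55% of all promoters (2.68% for tested genes). The variant TGACATCA was found in Jun at -45 and in another Maff promoter, and this element or its reverse complement in 2.93% of all promoters (1.59% for tested genes).

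The TRE (TGAGTCA or TGACTCA) was in none of the 11 promoters and in 4.46% of all promoters (3.27% for tested genes). The hypoxia response core ACGTG was found in 3 of 11, in Jund, Maff and Mafk, against 16.6% of all promoters and 21.8% of those of tested genes. The heat shock element core GAANNTTC was in Fosl2 and Jun, against 6.69% and 4.86%. The box bound by SRF, known as the CArG box, had no match in the 250 bases searched in each of the 11 promoters. It was in 1.47% of all promoters and 1.16% of those of tested genes. Bases farther upstream were not searched, so a box lying there, in Fos or another member, would have been missed. TATAAA was found only in Fos, at -33, against 12.4% and 6.19%. The members' promoters had a median GC content of 64%, against 52.4% for all promoters. These matches describe letters in short windows, and no binding was measured.

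The libraries held between 20438746 and 21854790 counts. Hepatocyte markers were present, with 11 of 12 reaching 10 counts in some library and a summed level of 4252 to 4595 CPM (counts scaled to the library total) in the control and 6227 to 6262 CPM after H/R. Krt8 and Krt18 gave most of these counts, and Alb, Afp and Ttr fell. Endothelial and stellate markers stayed at or below 0.633 CPM in sum. Macrophage and blood markers summed to 3.10-3.57 CPM in the control and 8.51-10.3 CPM after H/R, with Cd68 and Csf1r alone of 7 reaching 10 counts and Adgre1, Clec4f and Ptprc at 0 to 3 counts in each library. The cholangiocyte markers Krt7, Krt19 and Sox9 summed to 1321-1486 CPM in the control and 2439-2533 CPM after H/R. What part these marker shifts have in the results was not tested, and in bulk RNA fewer cells of a type and less RNA per cell cannot be told apart. Control replicate 1 held 29.4 CPM of adult liver genes against 5.18 and 8.87 in the other controls, and without it the log2 fold changes of the members ran from 0.65 for Jund to 4.88 for Fosb.

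Among the FOS genes, Fos is the classical immediate early gene of the family. On GRCm38 it lies at chr12:85473890-85477273 on the plus strand. The deposited counts were 58, 54 and 70 in the control libraries and 204, 226 and 258 in the H/R libraries, so the groups lay far apart. Scaled to a common library size, this was 57.8 ± 7.08 against 240.4 ± 19.3 (SD, n = 3 each), a fold change of 4.15. The log2 fold change was 2.05 (SE 0.129, edgeR quasi-likelihood test with Benjamini-Hochberg adjustment, adjusted p = 8.09e-16).

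Fosb, at chr7:19302696-19310051 on the minus strand, is a close relative of Fos that also gives rise to the stable truncated form known from brain. It was almost silent in the control, with 2, 4 and 0 counts, and reached 65, 55 and 51 counts after H/R. It was therefore tested only because of the H/R libraries. Its summed counts were 6 and 171, a ratio per library size of 31.4 with a 95% exact interval of 14.1 to 86.7 that covers counting error only. The fitted log2 fold change was 4.88 (SE 0.409, edgeR adjusted p = 1.49e-12) and ranked 6th among 14020 genes tested. At this depth the size is loose: without Control replicate 2, which held 4 of the 6 control reads, the log2 fold change was 5.81.

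Fosl1 encodes FRA-1, a FOS protein without a strong activation domain that is common in proliferating and transformed cells. It lies at chr19:5447703-5455945 on the plus strand and was the most abundant FOS gene in both groups. Its counts were 2308, 2063 and 2364 in the control and 4822, 5315 and 5111 after H/R. The groups did not overlap, and the log2 fold change was 1.32 (SE 0.0484, edgeR adjusted p = 4.02e-21). Fosl2, which encodes FRA-2, at chr5:32135801-32157842 on the plus strand, had 498, 432 and 466 counts against 965, 1068 and 1116. Its log2 fold change was 1.31 (SE 0.0621, edgeR adjusted p = 3.33e-19). The log2 ratio of Fosl1 to Fosl2 per length moved by 0.01, with overlapping groups (4.77 ± 0.07 in the control and 4.78 ± 0.07 after H/R). Relative to Fosl1, Fos moved by 0.74 on the log2 scale, and relative to Fosl2 by 0.75, without overlap in either.

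Among the JUN genes, the 3 members moved by unequal amounts. Jun, the strongest activator of the family, lies in 1 exon at chr4:95049034-95052222 on the minus strand. It had 307, 237 and 319 counts in the control and 1623, 1279 and 1748 after H/R, and replicate 2 was the lowest library of both groups. Its fold change was 5.92 (log2 2.57, SE 0.137, edgeR adjusted p = 3.51e-06), with normalized counts of 274 ± 37.5 against 1625 ± 212. The opposite strand carries Junos, an antisense gene that shares 232 bases with Jun and went from 6, 7 and 10 counts to 17, 29 and 46. If Junos reads were spread evenly over its exons, those in the shared bases could make up at most 0.177% of the Jun count.

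Junb, which can oppose Jun at some targets, lies at chr8:84974484-84978718 on the minus strand. Its counts of 753, 791 and 878 in the control and 2806, 3020 and 3164 after H/R were tight within groups. The fold change was 4.08 (log2 2.03, SE 0.0523, edgeR adjusted p = 1.12e-26). Prdx2, on the opposite strand, shares 173 bases with Junb, and at its own level could account for at most 11.1% of the control count. With those reads taken out, a calculation added after seeing the data, the log2 fold change of Junb was 2.15.

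Jund is the JUN gene that is usually expressed steadily in resting cells. Its row covers 1 exon at chr8:70698949-70700616 on the plus strand, and it had 1735, 1432 and 1752 counts in the control and 2104, 2172 and 2542 after H/R. The groups did not overlap, but the fold change of 1.52 was the smallest of the 10 (log2 0.61, SE 0.0585, edgeR adjusted p = 6.91e-09). Gm11175, annotated on the opposite strand, lies wholly inside the Jund exon and shares 877 bases, 52.6% of its length. Its counts were 1474, 1199 and 1470 against 1731, 1822 and 2175, and its log2 fold change was 0.60 (SE 0.0685). The library kit kept the strand, but whether strand was used in counting is not given in the sources used here, so up to 85.6% of the Jund count may belong to reads that both rows hold.

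**Figure D1:**
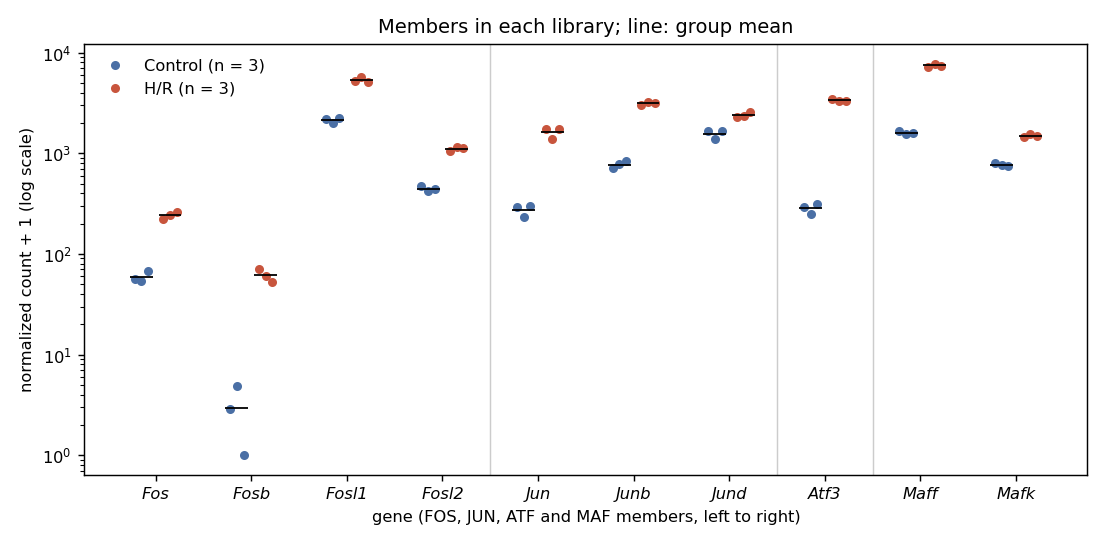
Normalized counts plus 1 (log scale) of the 10 genes in each library, with 3 control libraries in blue, 3 H/R libraries in red and the group mean as a line. In every gene the 3 H/R points lie above the 3 control points, and the gap is widest for Fosb (60.1 against 1.93) and Atf3 (3364 against 284).

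Atf3, the stress-induced ATF gene, had the clearest change of the 10. It lies at chr1:191170296-191218039 on the minus strand, and its counts went from 308, 255 and 331 in the control to 3222, 3059 and 3326 after H/R. The H/R libraries lay close together, at 3364 ± 92.5 normalized counts against 284 ± 32.1 in the control. The fold change was 11.8 (log2 3.56, SE 0.0606, edgeR adjusted p = 1.76e-31), which ranked 20th of all genes tested.

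Maff was the more responsive small MAF gene. It lies at chr15:79347541-79359072 on the plus strand, and it had 1755, 1582 and 1700 counts in the control and 6600, 7206 and 7437 after H/R. The fold change was 4.64 (log2 2.21, SE 0.0458, edgeR adjusted p = 2.03e-29), and after H/R it gave more reads than any other member. Mafk, at chr5:139791513-139802653 on the plus strand, had 842, 784 and 791 counts against 1342, 1442 and 1491. It rose by less, 1.95-fold (log2 0.96, SE 0.0532, edgeR adjusted p = 2.66e-17). The log2 ratio of Maff to Mafk per length went from 1.94 ± 0.05 to 3.19 ± 0.01, a shift of 1.25 with no overlap between groups.

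With the study's thresholds of an adjusted p under 0.05 and a fold change of at least 2, 8 of the 10 genes were called, all of them higher, and Jund and Mafk were not. In the background, 8.52% of the 14020 genes tested were called, 4.25% higher and 4.27% lower. An adjusted p under 0.05 in the higher direction was reached by all 10 members and by 31% of tested genes (62.8% in either direction). A rise of at least 4-fold with an adjusted p under 0.05 was reached by 6 members and by 0.806% of tested genes. With upper quartile scaling or library totals, Fos (log2 1.98 or 1.95) and Junb (1.96 or 1.92) lay just under 4-fold. All 10 had their 3 H/R libraries above the 3 control libraries, which held for 32.5% of tested genes, and in 65.9% the groups did not overlap in either direction. Fosb passed the filter on low counts through the H/R libraries alone, and 7 of the other 9 were called. Whether the replicates came from separate cultures is not stated, so the p-values measure only the spread between these libraries.

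**Figure D2:**
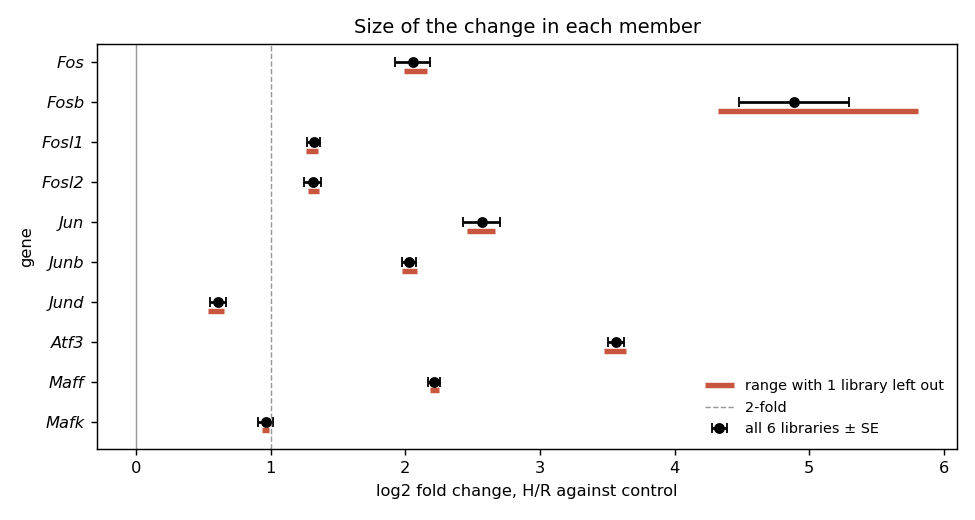
Log2 fold change of each gene, H/R against control, with its SE (black, all 6 libraries) and the range when 1 library was left out (red bar below). Jund (0.61) and Mafk (0.96) lie left of the dashed 2-fold line, the other 8 lie right of it, and the range is wide only for Fosb (4.32 to 5.81).

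The members differ in transcript length, so their levels were compared as RPKM, reads per kilobase of exon scaled to the library total. In the control the order was Fosl1 (61.4 ± 3.76), Jund (45.9 ± 4.47), Maff (37.0 ± 1.31), Junb (16.4 ± 1.46), Mafk (9.65 ± 0.199), Atf3 (6.46 ± 0.792), Jun (4.21 ± 0.603), Fosl2 (2.24 ± 0.116), Fos (1.21 ± 0.166) and Fosb (0.0150 ± 0.0152). No 2 neighbours in that order overlapped between libraries. After H/R, Maff (159.8 ± 7.45) stood first and overlapped with Fosl1 (142.6 ± 8.47). Atf3 (71.1 ± 1.70), Jund (65.1 ± 4.48) and Junb (62.3 ± 2.54) followed, each overlapping with the next. Below them came Jun (23.2 ± 3.11), Mafk (17.5 ± 0.669), Fosl2 (5.19 ± 0.289), Fos (4.66 ± 0.412) and Fosb (0.438 ± 0.0660), of which only Fosl2 and Fos overlapped. Fosb thus had the largest fold change and the lowest level, while Fosl1, Maff, Jund, Junb and Atf3 made up most of the pool.

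Summed over the 10 genes, the RPKM level went from 184.5 ± 11.5 in the control to 551.9 ± 15.7 after H/R. The FOS genes went from 64.9 ± 3.97 to 152.8 ± 8.71, a ratio of 2.35, and the JUN genes from 66.5 ± 5.59 to 150.6 ± 6.96, a ratio of 2.26. Atf3 rose 11.0-fold on this scale, and the MAF genes went from 46.7 ± 1.42 to 177.3 ± 8.11, a ratio of 3.80. RPKM is scaled by library totals, and on those totals the median of all tested genes lay at -0.12 (log2). Shares within a library do not depend on that scaling.

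In the composition, FOS and JUN genes held a smaller share after H/R, though the direction for JUN turned when Jund was left out. Atf3, the only ATF member, and the MAF genes held a larger one. FOS genes made up 35.02%, 35.3% and 35.2% of the summed RPKM in the control libraries and 27.6%, 28.9% and 26.6% in the H/R libraries. JUN genes made up 35.9%, 35.3% and 36.9% against 27.3%, 26.1% and 28.5%. Every H/R library lay below every control library in both families. The mean FOS share fell by 7.48 percentage points (35.2 ± 0.135 to 27.7 ± 1.11) and the mean JUN share fell by 8.72 (36.0 ± 0.814 to 27.3 ± 1.16). Atf3 alone went from 3.51%, 3.27% and 3.70% to 13.6%, 12.3% and 12.8%, a gain of 9.41 points. The MAF genes went from 25.6%, 26.2% and 24.2% to 31.5%, 32.7% and 32.1%, a gain of 6.80 points, which was 2.73 points with Jund left out. With AP-1 partners and other MAF genes added to the ATF and MAF sums, the gains were 3.497 points for ATF and 4.80 for MAF. Neither gain came with overlap between groups. An exact permutation test of 3 against 3 libraries cannot go below p = 0.1, so the shares are given with their SDs and ranges alone.

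**Figure D3:**
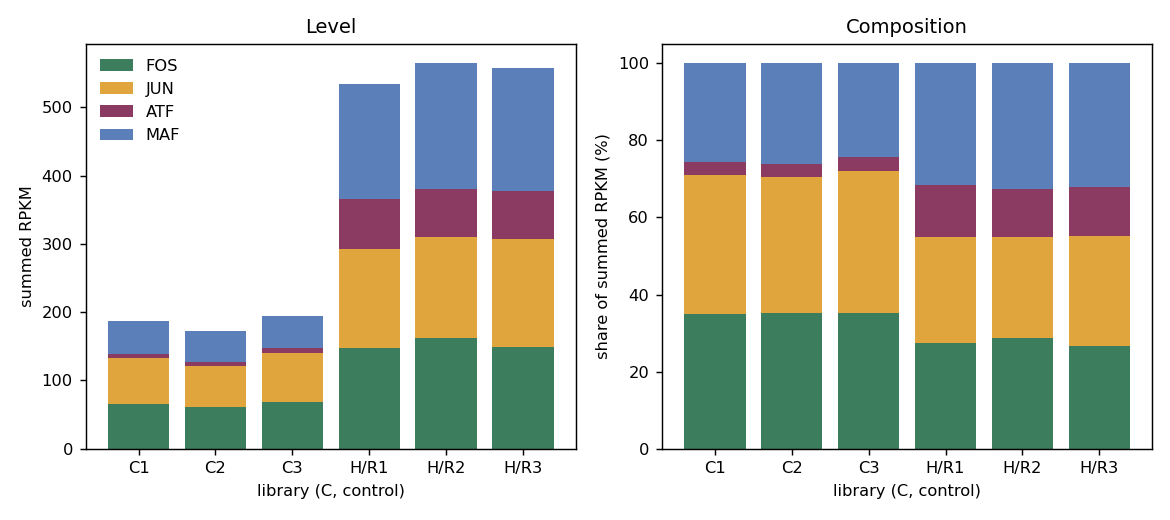
Summed RPKM of the FOS, JUN, ATF and MAF genes in each of the 6 libraries (left) and the share of each family in that sum (right, %). The total rises from 184.5 to 551.9 on average, and the ATF band (Atf3 alone) widens from 3.49% to 12.9% while the FOS and JUN bands narrow.

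By gene, the shares moved both ways. Maff went from 20.1 ± 0.683% to 29.0 ± 0.539% of the summed RPKM, and Junb from 8.90 ± 0.778% to 11.3 ± 0.142%. Jund fell from 24.8 ± 0.972% to 11.8 ± 0.694% and Fosl1 from 33.3 ± 0.130% to 25.8 ± 1.14%. Jun went from 2.27 ± 0.193% to 4.21 ± 0.642%, and Mafk from 5.24 ± 0.338% to 3.17 ± 0.0348%. None of these overlapped between groups.

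Within the FOS family, Fosl1 held 94.7 ± 0.0127% of the RPKM in the control and 93.3 ± 0.425% after H/R, so the family sum was close to the Fosl1 level in both groups. Within the JUN family, Jund held 69.0 ± 1.94% in the control and 43.2 ± 1.01% after H/R, while Junb went from 24.7 ± 2.29% to 41.4 ± 1.89% and Jun from 6.31 ± 0.423% to 15.4 ± 1.91%. The direction for Junb rests on Jund: of the sum of Jun and Junb alone, Junb went from 79.6% to 72.9%. After H/R the RPKM ranges of Jund and Junb overlapped. Relative to Jund, Jun moved by 1.96 and Junb by 1.42 on the log2 scale, and Jun moved by 0.54 relative to Junb. Within the MAF family, Maff went from 79.3 ± 0.517% to 90.1 ± 0.0778%.

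Relative to JUN, the level of Atf3, the only ATF member, rose by 2.29 on the log2 scale, from -3.37 ± 0.06 to -1.08 ± 0.08. The MAF level rose by 0.74, from -0.51 ± 0.09 to 0.24 ± 0.08. The log2 ratio of FOS to JUN was -0.03 ± 0.03 in the control and 0.02 ± 0.12 after H/R, a difference of 0.05 with overlapping groups, and without H/R replicate 2 it was -0.00604. These values rest on Jund, whose row shares bases with Gm11175. With Jund left out, a calculation added after seeing the data, the JUN share rose from 14.9 ± 0.828% to 17.6 ± 0.739% in place of falling. The log2 ratio of FOS to JUN then fell by 0.82, from 1.66 ± 0.09 to 0.84 ± 0.11 with no overlap, and the ratio of MAF to JUN moved by -0.13 with overlapping groups. Atf3 gained relative to JUN either way, by 1.41 without Jund. The FOS share fell either way, by 15.4 points without Jund.

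**Figure D4:**
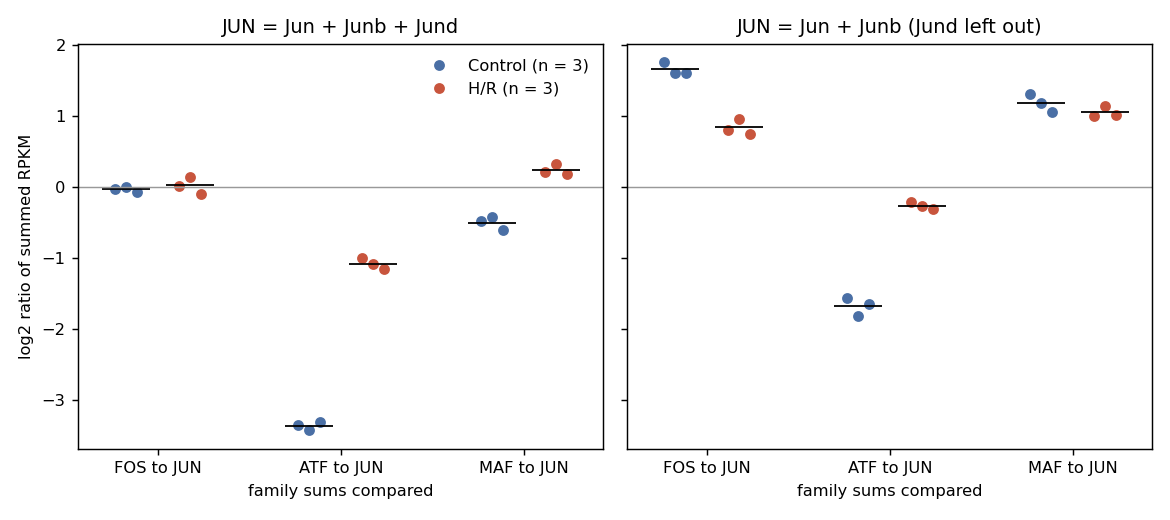
Log2 ratios of summed RPKM between families in each library, with 3 control libraries in blue, 3 H/R libraries in red and the group mean as a line. With Jund in the JUN sum (left) the FOS to JUN ratio overlaps between groups, and without Jund (right) it goes from 1.66 to 0.84. The ATF to JUN ratio, with Atf3 as the only ATF gene, is higher after H/R in both panels.

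Few exon blocks were common among the members. All 10 had at most 5 merged exon blocks, with a median of 4, against 37.6% of the tested genes, whose median was 8. The 3′ UTR of short-lived transcripts often carries AU-rich elements, which are bound by proteins that speed decay. The 7-base element TATTTAT was present in the 3′ UTR (GENCODE M21) of 8 of 10 members, all but Junb and Mafk, against 28.0% of 10625 tested genes with a 3′ UTR. The longer TTATTTATT was present in Fos, Fosl2 and Maff, 30% of members against 7.26% of tested genes. The core ATTTA, which both contain, had a median density of 2.20 per kilobase in the members and 1.26 in tested genes. Decay was not measured. One site of the longer element for each of Fos, Fosl2 and Maff, which holds 2, is printed as 25 bases of GRCm38 on the plus strand, with the element in capitals.
Fos, chr12:85477105-85477129: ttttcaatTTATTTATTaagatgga
Fosl2, chr5:32156873-32156897: ttattttaTTATTTATTttaaatgt
Maff, chr15:79358780-79358804: ccacactcTTATTTATTgcacgaat

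Genes around AP-1 were read in the same fit, in lists chosen with earlier results of these data known. Across 7 lists of partners, kinases, regulators and targets with 92 genes, 72 were tested, 13 were called higher and 1 was called lower. Creb3l3 and Mmp13 among the higher, and Map3k8 as the lower, passed the filter on low counts only through the group in which they were high. Over all tested genes, 4.25% were called higher and 4.27% lower. Of the 4 tested partners outside the members, 1 was called, Jdp2, a repressor that pairs with JUN (757 ± 9.98 to 1584 ± 83.8 normalized counts, log2 1.07, SE 0.0535, edgeR adjusted p = 1.73e-18). With scaling by library totals it fell below the 2-fold line. None of the 5 tested MAF and CNC/BACH partners was called. An adjusted p under 0.05 in the higher direction was reached by 4 of them, against 31% of all tested genes. Their list had a median log2 fold change of 0.31, against -0.01 over all tested genes.

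In the list of other ATF/CREB and C/EBP factors, 4 of 17 tested genes were called higher and none lower. Over all tested genes these shares were 4.25% and 4.27%, and the list had a median log2 fold change of 0.51. The largest was Creb3l3, a liver factor of fasting metabolism, which went from 7.69 ± 4.55 to 30.8 ± 4.25 normalized counts (log2 1.99, SE 0.352, edgeR adjusted p = 8.05e-06). Its control counts were 4, 13 and 7, so it was tested only because of the H/R libraries. It thus entered the count of 4 through the group in which it was high. Ddit3, which encodes the stress factor CHOP, rose by 1.61 (SE 0.0599, edgeR adjusted p = 6.98e-20) and Atf6, a sensor of the unfolded protein response, by 1.45 (SE 0.0521, edgeR adjusted p = 1.53e-22). All 3 values lay below that of Atf3 (3.56).

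Among the kinases of the MAPK pathway, the shares called lay near the background. Of 16 tested MAPK pathway genes, 1 was called higher and 1 lower, against 4.25% and 4.27% of all tested genes. An adjusted p under 0.05 was reached by 6 in each direction, against 31% of all tested genes in the higher direction, and the median was -0.04. Map3k8 fell by 1.82 on the log2 scale, from 20.03 ± 4.05 to 5.62 ± 1.71 normalized counts (SE 0.398, edgeR adjusted p = 0.000172). With 4, 7 and 5 counts after H/R, it was tested only because of the control libraries. Map3k1, an activator of the JNK pathway, rose by 1.18 (SE 0.0911, edgeR adjusted p = 1.71e-13). None of the 6 tested SRF and ternary complex factors, which drive Fos in response to serum, was called, and their median was 0.18. An adjusted p under 0.05 was still reached by 3 in the higher direction and by 1 in the lower. Srf itself rose by 0.92 (607 ± 26.8 to 1153 ± 9.83 normalized counts, SE 0.0562, edgeR adjusted p = 3.45e-16), just under the 2-fold line. Elk3 fell by 0.81 (SE 0.0649, edgeR adjusted p = 4.71e-13). Kinase activity is not visible in these data.

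Of 11 tested genes known as AP-1 targets, 5 were called higher and none lower, against 4.25% and 4.27% of all tested genes. An adjusted p under 0.05 was reached by 8 in the higher and 3 in the lower direction, and the median was 0.68. Over all tested genes, 31% reached it in the higher direction and 62.8% in either. The collagenase gene Mmp13 rose by 2.89 (10.5 ± 2.60 to 78.6 ± 9.07 normalized counts, SE 0.249, edgeR adjusted p = 3.03e-12). With control counts of 13, 12 and 8 it passed the filter on low counts through the H/R libraries. It thus entered the count of 5 through the group in which it was high. The chemokine gene Ccl2 rose by 2.15 (1239 ± 67.6 to 5486 ± 470, SE 0.0573, edgeR adjusted p = 7.45e-19), and the growth factor gene Areg by 2.04 (357 ± 20.2 to 1472 ± 65.5, SE 0.0610, edgeR adjusted p = 8.11e-25).

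Genes known to be bound by pairs of NRF2 and small MAF proteins moved both ways, with more of them lower than higher. Of 13 tested, 2 were called higher and none lower, against 4.25% and 4.27% of all tested genes. An adjusted p under 0.05 was reached by 2 in the higher and by 8 in the lower direction, and the median was -0.29. Over all tested genes, 31% reached that adjusted p in the higher direction and 62.8% in either, so the 2 directions held like shares. Hmox1, which encodes the heme-degrading enzyme and is repressed by BACH1, rose by 1.47 (1147 ± 56.2 to 3178 ± 166 normalized counts, SE 0.0495, edgeR adjusted p = 2.13e-23). Osgin1 rose by 1.35 (184 ± 23.1 to 468 ± 42.8, SE 0.0944, edgeR adjusted p = 2.13e-14). Of the 8 lower genes, Slc7a11 fell most, by 0.83 (1080 ± 33.8 to 606 ± 41.5, SE 0.0593, edgeR adjusted p = 2.42e-14). Gsta4 came next, with a fall of 0.61 (2653 ± 143 to 1742 ± 57.5, SE 0.0474, edgeR adjusted p = 2.35e-13).

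**Figure D5:**
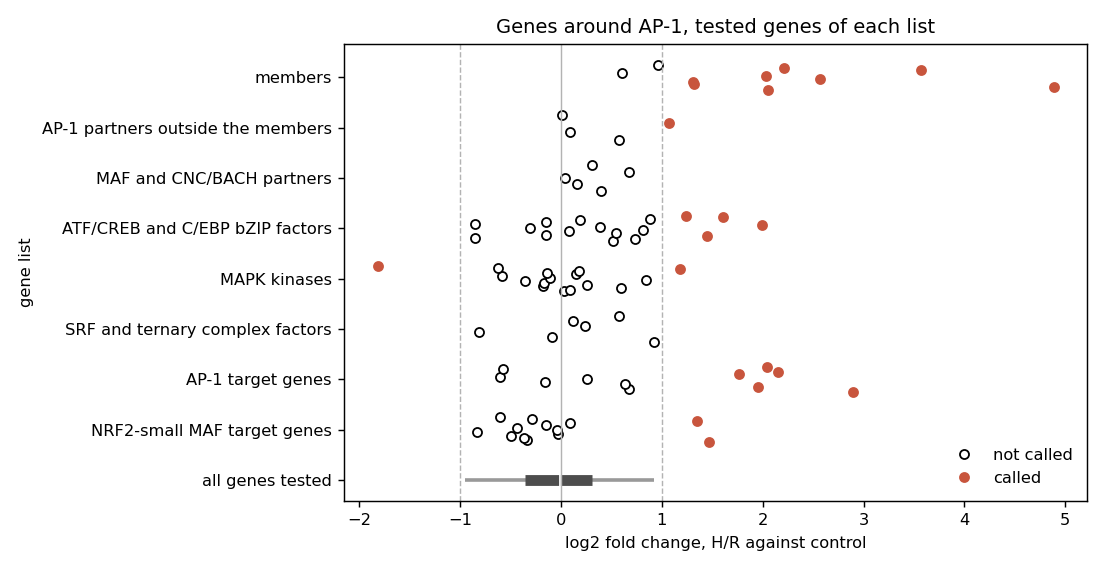
Log2 fold change (H/R against control) of each tested gene of the members and of 7 lists around AP-1, with filled points for genes called at 2-fold and an adjusted p under 0.05. The bar for all genes tested spans the 25th to 75th and the 5th to 95th percentiles; 8 of 10 members but none of the 5 tested MAF and CNC/BACH partners are filled.

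The genes whose profiles lay nearest to the leading member of each family were found by the root mean square distance of centred log2 CPM over the 6 libraries. For Fosb these were Adm, Pgf and Car6, at distances of 0.523, 0.581 and 0.608. For Jun they were Atxn1 (0.141), Ccng2 (0.188) and Ankrd37 (0.193). Atf3 lay nearest to Fam65c (0.106), Adm (0.146) and Gm17035 (0.149). Maff had the closest neighbours, Plk2 (0.0499), Ccl2 (0.0537) and Plat (0.0679). The log2 fold change of the nearest gene was 3.78 for Adm beside 4.88 for Fosb, 2.70 for Atxn1 beside 2.57 for Jun, 3.64 for Fam65c beside 3.56 for Atf3, and 2.15 for Plk2 beside 2.21 for Maff. Since the distance itself measures the profile, a like fold change is built into this choice.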

How the data were processed

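RNA from 6 samples of AML12 cells was extracted with TRIzol, made into stranded mRNA libraries and sequenced with paired ends. Per the submitters' processing notes, the tools included Trimmomatic 0.36, featureCounts of Subread 1.5.1 and edgeR 3.12.1, on GRCm38. The gene annotation is not given in the sources used here. The deposited counts hold whole reads per gene, not normalized. The authors also deposited RPKM, which could be rebuilt from count, exon length and library total to within a relative error of 1.13e-06.

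Counts were tested here with edgeR 4.0.16 in R 4.3.3 (filterByExpr with a minimum count of 10, TMM scaling, quasi-likelihood test, Benjamini-Hochberg adjustment over 14020 genes), and the code was tested on simulated data. DESeq2 1.42.0 and limma 3.58.1 served as alternatives, with other scalings, filters, thresholds and libraries left out. Libraries held 20438746 to 21854790 counts. In 24 rows the symbol had become a date, and none of these is named. Family shares were computed from RPKM per library. Overlaps came from the exon coordinates deposited with the counts, 3′ UTRs and coding transcript lengths from GENCODE M21, and promoters from RefSeq. All 10 members were named, and of each list up to 3 called genes with the largest change. Srf, Elk3, Slc7a11, Gsta4, Atf4 and Atf5, which were not called, were named in addition after seeing the data. The members and lists were chosen with earlier results of these data known.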

Additional observations from a re-analysis of the deposited data

How the results depend on the processing

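Under 14 alternatives (13 for Fosb), every log2 fold change of the 10 genes kept its direction and its adjusted p under 0.05. Members called numbered 8, except 7 with at least 10 counts in every library, 6 with limma on log2(RPKM + 1), 10 at 1.5-fold and 6 at 4-fold. Adding 1 to the RPKM reduced Fosb to 0.50 and Fos to 1.36, since both lie near or below 1 RPKM in the control. Over all tested genes 1195 were called, against 474 when tested against a 2-fold threshold, 406 with limma on log2(RPKM + 1), 3420 at 1.5-fold and 162 at 4-fold, and 1211 to 1290 without 1 library. The share called higher was 49.9%, against 41.3% for upper quartile factors and 37.0% for library totals, under which 0 AP-1 partners outside the members were called. Replicate numbers did not pair the libraries (correlations of deviations -0.0269, 0.00476 and -0.0141), and a replicate block called 1200 genes and the same number of members, 8.

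Family shares and ratios moved more. With counts in place of RPKM the changes were -5.64 points for JUN, 4.08 for MAF, -1.76 for Fosl1 in FOS, 14.4 for Junb and 12.2 for Jun in JUN and 15.7 for Maff in MAF, and the log2 ratios moved by -0.11 (FOS to JUN, reversed), 2.11 (ATF to JUN) and 0.46 (MAF to JUN). With AP-1 partners and other MAF genes added they were -3.63 for FOS, -4.67 for JUN, 3.497 for ATF, 4.80 for MAF and 21.5 for Maff in MAF, with ratios of 0.54 (ATF to JUN) and 0.49 (MAF to JUN). With the longest coding transcript as length, added after seeing the data, Fosl1 in FOS moved by -1.74, Maff in MAF by 11.997 and MAF to JUN by 0.66. Without Jund, also added, the changes were -15.4 for FOS, 2.71 for JUN (reversed), 9.98 for ATF, 2.73 for MAF, -6.69 for Junb (reversed) and 6.69 for Jun in JUN, and -0.82 (FOS to JUN, reversed), 1.41 (ATF to JUN) and -0.13 (MAF to JUN, reversed). The cause was not tested beyond these constructions. Leaving out 1 library gave -8.07 to -6.96 for FOS, -9.31 to -8.15 for JUN, 9.04 to 9.70 for ATF, 6.23 to 7.22 for MAF, -0.00604 (reversed, without H/R replicate 2) to 0.11 for FOS to JUN, 2.25 to 2.33 for ATF to JUN and 0.69 to 0.78 for MAF to JUN.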
